A study of Mus musculus with 150 samples.

Results

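Whole lungs of wild-type (WT) mice were compared with those of mice that lack the cytochrome P450 CYP2F2 (KO), all after 78 weeks of inhaling 120 ppm styrene. The comparison holds 9 of the 150 arrays of the series, 1 array per mouse: WT replicates 2 to 5 (n = 4) and all KO replicates (n = 5), chosen by line, dose, week and array plate. A further exposed WT mouse, replicate 1, has a well label of another plate; it was left out of the comparison and is given as a separate value. Mice were male, adult C57BL/6 animals from 1 supplier, labelled WT or CYP2F2(-/-) (KO), and the labels give no age, no litter and not which part of Cyp2f2 was removed. The exposure label reads 6 h a day on 5 days a week for 1 or 4 weeks, which differs from the 78 weeks of each sample's own label, used here. Set beside the comparison are air-breathing WT (n = 2) and KO (n = 4) mice of the same week on plate 1, and 3 styrene-exposed mice of a line labelled CYP2F2(-/-) + 2F1,SA13,2B6-transgenic (TG) on plate 2. WT and KO mice of 26, 52 and 104 weeks are other animals. Replicates are separate mice, and the number of arrays limits the precision.

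CYP2F2 is a P450 of club cells, the secretory cells of the mouse airway, and oxidises styrene to reactive products. Lung cells meet such products with esterases, reductases, glutathione enzymes and glucuronosyltransferases, many of them under the control of the stress-sensing factor Nrf2. A comparison of exposed WT with exposed KO lungs asks which transcripts differ when this P450 is present or absent under the same exposure. It also contains every difference that the 2 lines have without styrene.

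All levels below are deposited log2 values, and differences are WT minus KO on that scale. A gene is called where limma's p-value, with the Benjamini-Hochberg adjustment across 15695 genes, lies under 0.05. Medians of the 9 arrays ran from 4.13 to 4.24. The lung was recognisable by its markers: mean levels of the alveolar type 2 list were 11.36 to 11.82 per array, of the alveolar type 1 list 10.65 to 11.42 and of the club cell list 9.82 to 10.39. Within their groups 2 arrays stood apart, WT replicate 4 and KO replicate 5. In these mice the mean level of 18 alveolar macrophage markers was 10.26 and 10.17, against 8.10 to 8.69 in the other 7. Results are therefore also given without both. KO air replicate 1 and TG styrene replicate 3, in groups set beside the comparison, had raised macrophage genes too, with values given at the end.

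Cyp2f2 itself was 1.96-fold higher in WT lungs. The 4 WT mice had levels of 13.32, 13.23, 12.95 and 13.20, and the 5 KO mice 12.37, 12.26, 12.29, 12.25 and 11.82. The groups did not overlap (difference 0.97, SE 0.12, limma adjusted p = 3.27e-09). KO signal remained high on this bright probe set, and the labels do not say whether its probes lie in the removed part. In bulk tissue, fewer cells of a type and less RNA per cell cannot be told apart. Of 193 tested genes within 5 Mb of Cyp2f2, Cyp2f2 was the one called.

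Exposed WT and KO lungs differed in 22 genes, which is 0.140% of those tested. In WT lungs 17 were higher (0.108% of genes tested) and 5 lower (0.0319%). The leading genes were the carboxylesterase Ces1g, the plasma protease inhibitors Fetub and Serpind1, the quinone reductase Nqo1, the securin gene Pttg1 and the acyl-CoA synthetase Acsm1, all higher in WT. Asgr1, a subunit of the asialoglycoprotein receptor, Lrmda and the proton pump subunit Atp6v1b1 were lower. In 20 of the 22 genes the 4 WT values lay clear of the 5 KO values; the exceptions were Ifna2 and A930001A20Rik. Over all genes, 1.08% lay clear above and 1.01% clear below. At an unadjusted p under 0.05 there were 498 genes (3.17%). The median difference over all genes was 0.

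**Figure D1:**
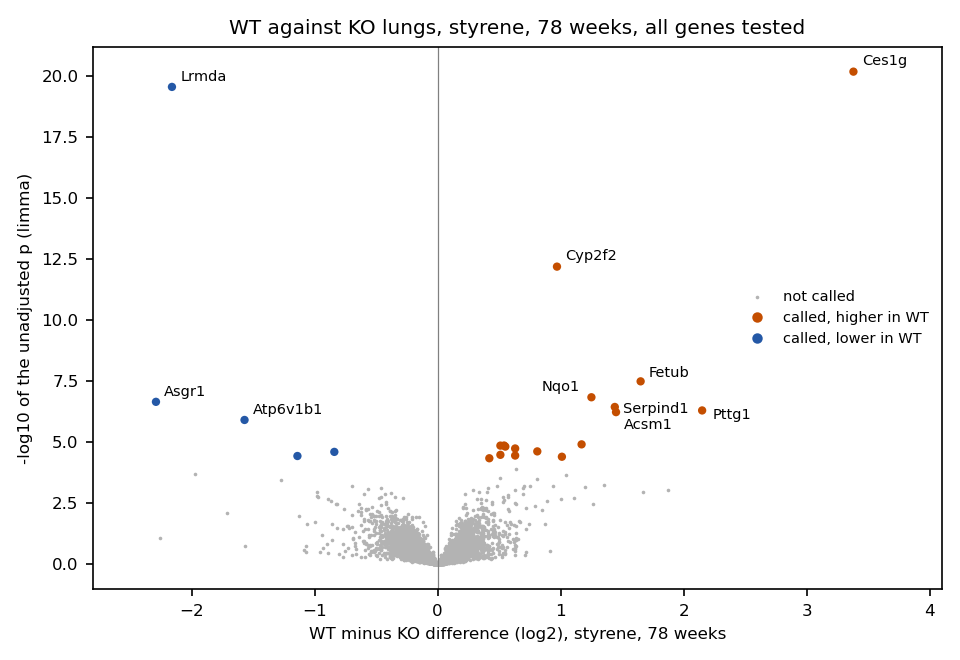
Difference between exposed WT and KO lungs at 78 weeks (x axis, log2) against the unadjusted limma p (y axis, -log10), 1 point per gene tested. Orange points are the 17 genes called higher in WT and blue points the 5 called lower. Ces1g, at 3.38, and Lrmda, at -2.16, lie far above the rest.

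The WT mouse left out of the fit lay beyond all 5 KO mice, on the side of the WT mean, in 22 of the 22 genes, against 30.6% of all genes tested. Its level was 8.61 for Ces1g, 7.54 for Nqo1, 6.55 for Serpind1 and 4.00 for Asgr1. The call held for 10 genes whichever of the 9 arrays was left out: Ces1g, Lrmda, Cyp2f2, Fetub, Nqo1, Asgr1, Serpind1, Pttg1, Acsm1 and Atp6v1b1. The other 12 lost it without 3 to 8 of the arrays, each in the same direction throughout. Without WT replicates 2, 3, 4 and 5 in turn, 13, 10, 17 and 16 of the 22 genes stayed called, and without KO replicates 1 to 5 in turn 17, 13, 11, 14 and 21. A fit of the 9 arrays alone, with their own spread, called 7 of the 22 (Ces1g, Lrmda, Cyp2f2, Nqo1, Serpind1, Atp6v1b1 and Tcfl5). Without both arrays that stood apart, 19 of the 22 stayed called, and Gpx2, Mat2b and Ppp1r14d did not (adjusted p = 0.099, 0.302 and 0.111).

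Carboxylesterases hydrolyse esters of lipids and drugs. Ces1g, a lipid-handling member, had levels of 7.97, 7.71, 6.96 and 7.69 in WT and 4.39, 4.33, 4.33, 3.90 and 4.06 in KO mice. The lowest WT mouse stood 2.56 above the highest KO mouse. The difference was 3.38 (SE 0.30, 10.4-fold, limma adjusted p = 1e-16). In air the 2 WT mice had 5.35 and 5.86 and the 4 KO mice 4.26, 4.23, 4.07 and 4.03, so that Ces1g was at 3 levels: KO lungs of either exposure, WT in air, and WT in styrene. Of 11 tested carboxylesterases, Ces1g was the only one called. Ces1f was 6.00, 6.23, 5.63 and 5.37 in WT and 5.59, 4.84, 4.30, 4.29 and 4.05 in KO mice. These ranges met at KO replicate 1, and the difference of 1.20 (SE 0.34) did not pass (adjusted p = 0.302). In air the same gene differed by 2.81 (SE 0.44, adjusted p = 2.03e-05), with WT mice at 6.64 and 6.99 and KO mice at 3.73 to 4.19. Its probe set is of a type shared between transcripts, so relatives may add to its signal. With WT replicate 1 kept in the fit Ces1f was called. Ces1c, under the filter level in KO and at least 1.27-fold higher in WT (adjusted p = 0.309), and Ces1e (0.60, SE 0.26, adjusted p = 1) lay clear of KO in WT mice without passing. Ces1d, the brightest member at 11.31 in WT and 11.15 in KO, differed by 0.16, and the 6 members outside the Ces1 cluster lay between -0.08 and 0.06. Of these 6, Ces2a, Ces4a and Ces5a were under the filter level, where a small difference says little.

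Serpind1 encodes heparin cofactor II, an inhibitor of thrombin, and Fetub encodes fetuin-B, an inhibitor of secreted proteases; both are best known as liver products that circulate in plasma. Serpind1 was 6.17, 6.33, 5.97 and 5.79 in WT and 4.30, 4.74, 4.98, 4.50 and 4.58 in KO mice. The groups were separated by 0.81, and the difference was 1.44 (SE 0.27, 2.72-fold, adjusted p = 0.000789). In air the line difference was -0.17 (SE 0.35), with WT mice at 4.35 and 4.55 and KO mice at 4.23 to 5.29. The highest of these was KO air replicate 1, an array with raised macrophage genes, and the other 3 lay at 4.23 to 4.64. Without it the air difference was 0.05 (SE 0.36). Exposed WT lungs were thus the one group of the 4 with raised values. Fetub was 6.06, 6.35, 6.48 and 6.15 in WT and 4.35, 4.43, 4.37, 4.16 and 5.75 in KO mice. The high KO value was that of replicate 5, the array with raised macrophage markers, whose fibrinogen gene Fga was at 8.82 against 2.77 to 3.76 in the other KO mice. The Fetub difference was 1.65 (SE 0.28, adjusted p = 0.000123), and 1.86 (adjusted p = 6.5e-05) without both arrays that stood apart. In air Fetub differed by 0.82 (SE 0.36, adjusted p = 1) at 78 weeks, and by 1.14 (SE 0.37, adjusted p = 0.871) without KO air replicate 1. It was called in air at 52 weeks (1.25, adjusted p = 0.00518) and 104 weeks (1.16, adjusted p = 0.0241). Of 28 tested plasma protein genes these 2 were called and 16 in all had a positive difference, with a median of 0.06. The 28 include 6 genes under the filter level, which limits this count and median. Albumin (Alb) was at 3.54 in WT and 3.37 in KO, and kininogen (Kng1) was at 3.01 to 4.37 in WT and 2.13 to 2.40 in 4 KO mice, under the filter level, with KO replicate 5 at 4.11. WT was at least 1.44-fold higher, which did not pass (adjusted p = 0.493) and was called without KO replicate 5.

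The sequences before the starts of Serpind1 and Fetub are shown because, after a search of all called genes, these held a form of the antioxidant response element, the motif bound by Nrf2, and that of Ces1g because its difference was the largest. The motif searched was TGACNNNGC on both strands, in the 250 bases before each start listed by RefSeq (GRCm38.p6); capitals mark a match. Serpind1 is chr16:17331121-17331370 on the plus strand, Fetub is the second of 2 listed starts, chr16:22919972-22920221 on the plus strand, and Ces1g is chr8:93337210-93337459 on the minus strand. Each is written 5′ to 3′ along the gene.
Serpind1: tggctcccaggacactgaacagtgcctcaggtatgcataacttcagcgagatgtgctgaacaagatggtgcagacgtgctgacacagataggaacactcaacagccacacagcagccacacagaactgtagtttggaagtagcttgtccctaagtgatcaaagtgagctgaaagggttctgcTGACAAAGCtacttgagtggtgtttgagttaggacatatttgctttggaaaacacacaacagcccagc
Fetub: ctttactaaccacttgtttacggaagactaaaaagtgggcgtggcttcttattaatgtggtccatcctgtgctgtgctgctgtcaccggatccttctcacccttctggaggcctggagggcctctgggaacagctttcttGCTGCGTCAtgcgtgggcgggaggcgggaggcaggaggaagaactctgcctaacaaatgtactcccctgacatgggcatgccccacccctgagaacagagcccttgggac
Ces1g: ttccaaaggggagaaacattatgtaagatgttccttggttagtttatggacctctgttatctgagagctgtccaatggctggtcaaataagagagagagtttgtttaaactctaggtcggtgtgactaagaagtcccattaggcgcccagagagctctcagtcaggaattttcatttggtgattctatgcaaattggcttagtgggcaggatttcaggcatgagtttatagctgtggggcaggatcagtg
The Serpind1 match begins 68 bases before the start and the Fetub match 110 bases before it, the latter on the opposite strand. The other Fetub start, Ces1g, Nqo1 and Gpx2 had no match in their windows. Of the 22 called genes 2 had a match at any listed start (9.09%), against 11.5% of the 27025 genes in the table, a share near the background. Among genes of the Nrf2 list found in the table, 3 of 17 had one (17.6%): Gclm, Txnrd1 and G6pdx, none of them called. A match is a description of these letters and shows no binding.

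Asgr1 was lower in exposed WT lungs than in the other groups. The WT mice had 3.58, 3.61, 3.14 and 2.93 and the KO mice 6.14, 6.20, 5.93, 5.13 and 4.60. No value overlapped (difference -2.29, SE 0.42, 4.88-fold, adjusted p = 0.000569). In air WT mice had 5.09 and 5.89 and KO mice 5.06 to 6.13, and the line difference was -0.13 (SE 0.54). WT replicate 1, whose array shared plate 1 with the air arrays, had 4.00. Atp6v1b1, a subunit of the vacuolar proton pump in acid-secreting epithelia, was 4.30, 4.44, 4.54 and 4.29 in WT and 6.48, 6.33, 5.76, 5.57 and 5.64 in KO mice. The difference was -1.57 (SE 0.31, adjusted p = 0.00188). Here air-breathing WT mice, at 4.92 and 5.12, lay between exposed WT and all KO mice, and the line difference in air was -0.65 (SE 0.40).

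**Figure D2:**
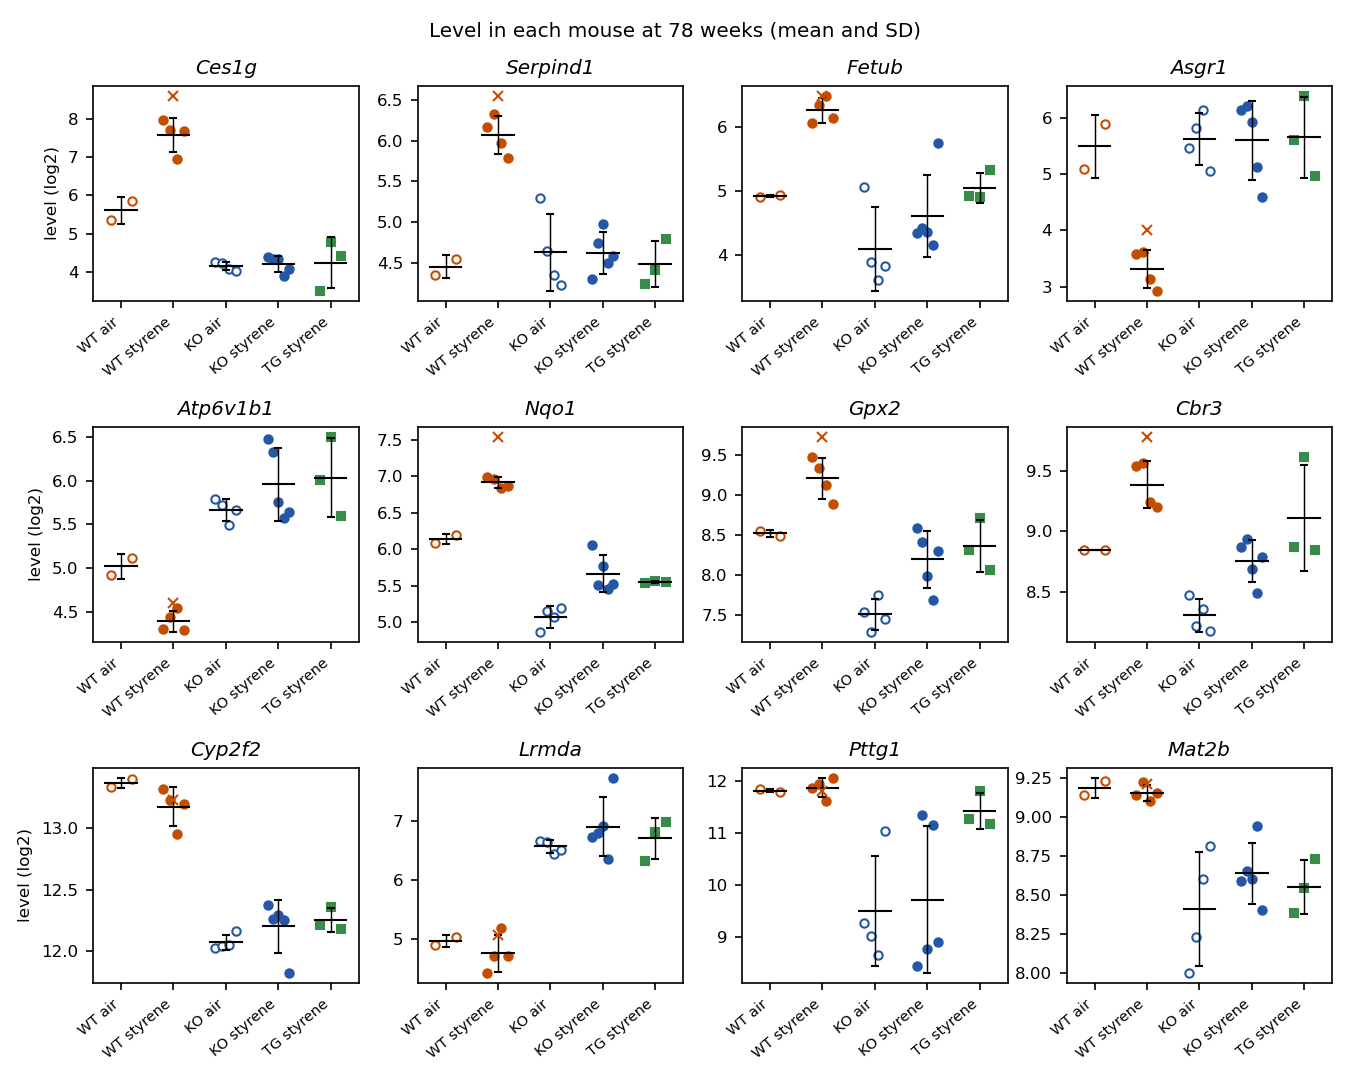
Level (log2, y axis) of 12 called genes in each mouse at 78 weeks, by line and exposure (x axis); lines and bars are means and SD, open points are air mice, and the cross is WT styrene replicate 1, left out of mean and SD. Air arrays and the cross are on plate 1, all others on plate 2. Serpind1 and Asgr1 stand apart in exposed WT mice alone, whereas Cyp2f2, Lrmda and Mat2b split WT from KO at both exposures.

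Genes of the Nrf2 response were higher in WT lungs where they passed the test. Of 21 tested targets 3 were called higher and none lower, and 18 had a positive difference with a median of 0.10; over all genes 49.5% were positive. Nqo1, which reduces quinones, was 6.99, 6.96, 6.84 and 6.87 in WT and 6.06, 5.51, 5.77, 5.45 and 5.53 in KO mice (difference 1.25, SE 0.22, adjusted p = 0.000442). Gpx2, an epithelial glutathione peroxidase, was 9.48, 9.34, 9.13 and 8.89 against 8.59, 8.41, 7.99, 7.69 and 8.30 (1.01, SE 0.24, adjusted p = 0.0289). Cbr3, a carbonyl reductase, was 9.54, 9.56, 9.24 and 9.20 against 8.87, 8.94, 8.69, 8.49 and 8.79 (0.63, SE 0.14, adjusted p = 0.0185). Values of the 3 genes did not overlap between the lines. All 3 differed in air at 78 weeks as well, by 1.06, 1.01 and 0.54, sizes that did not pass there (adjusted p = 0.488, 0.974 and 1). All 3 were called in air at 52 weeks, at 0.88, 1.40 and 0.64 (adjusted p = 0.04, 1.74e-05 and 0.00442). At 104 weeks in air they were at 0.22, 0.89 and 0.14 and did not pass (adjusted p = 0.925, 0.0677 and 0.922). For these genes the styrene-minus-air differences at 78 weeks were 0.19, 0.01 and 0.09, with 95% intervals of -0.54 to 0.91, -0.76 to 0.77 and -0.37 to 0.54. Other members lay close to 0: the glutathione synthesis genes Gclc and Gclm at 0.06 and 0.08, thioredoxin reductase Txnrd1 at 0.14 and the haem oxygenase Hmox1 at 0.10. Cbr1 at 0.39 (adjusted p = 0.561) and Ptgr1 at 0.37 (adjusted p = 1) lay clear of KO in WT mice without passing.

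Ugt1a6a and Ugt1a9, glucuronosyltransferases of 1 locus whose transcripts share their last exons and are not independent, were 1.45-fold and 1.43-fold higher in WT (adjusted p = 0.0163 each). Ugt1a6a was 11.42, 11.46, 11.10 and 11.23 in WT and 10.67 to 10.94 in KO mice. In air at 78 weeks Ugt1a6a differed by 0.34 (SE 0.15) and Ugt1a9 by 0.51 (SE 0.15), and neither passed. Ugt1a9 was called in air at 52 weeks (0.52, adjusted p = 0.00442) and not at 104 weeks (0.40, adjusted p = 0.127). Ugt1a6a was called in air at neither of these weeks (adjusted p = 0.151 and 0.159). Acsm1, which activates medium-chain acids, was 6.43, 6.35, 5.88 and 5.85 in WT and 5.38, 4.85, 4.59, 3.99 and 4.60 in KO mice (1.45, SE 0.27, adjusted p = 0.000999). In air Acsm1 differed by 1.05 (SE 0.35) at 78 weeks, which did not pass. It was called in air at 52 weeks (1.31, adjusted p = 0.00188) and 104 weeks (1.20, adjusted p = 0.0129). Ugt1a6a and Acsm1 were the 2 called members in styrene at 78 weeks among 22 tested xenobiotic metabolism genes, whose median was 0.05. Cyp2a5, an airway P450 whose probe set is of a shared type, was 10.72, 10.88, 10.40 and 10.38 in WT and 10.04, 9.06, 8.56, 7.93 and 9.04 in KO mice. The lines did not overlap, but KO mice varied widely, and the difference of 1.67 (SE 0.50) did not pass (adjusted p = 0.375). Of 18 glutathione transferases none was called, 15 were positive and the median was 0.14, led by Gsta4 at 0.39 (SE 0.16) and Gstt2 at 0.32 (SE 0.15). Of 9 targets of the aryl hydrocarbon receptor the 2 called, Nqo1 and Ugt1a6a, belong to other lists too, and Cyp1a1, a defining target, was at 5.27 in WT and 5.43 in KO.

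Lrmda and Mat2b were called in air as well as in styrene. Lrmda, named for a role in melanocyte differentiation, was 4.42, 4.70, 5.18 and 4.70 in WT and 6.73, 6.80, 6.92, 6.36 and 7.74 in KO mice. The difference was -2.16 (SE 0.19, adjusted p = 2.12e-16) in styrene and -1.61 (SE 0.25, adjusted p = 1.94e-05) in air, and its 3 probe sets had the same direction. The dimmest of them lay around the filter level and overlapped between the exposed lines, at 2.80 to 3.10 in WT and 3.04 to 3.30 in KO mice. Mat2b, the regulatory subunit of methionine adenosyltransferase, differed by 0.51 (SE 0.12, adjusted p = 0.0281) in styrene and 0.78 (SE 0.15, adjusted p = 0.00628) in air. Without KO air replicate 1 the air difference of Mat2b was 0.64 (SE 0.16) and no longer called (adjusted p = 0.159). That of Lrmda stayed called (-1.58, SE 0.26, adjusted p = 0.000131). Exposed WT mice had Mat2b levels of 9.10 to 9.22 and exposed KO mice 8.40 to 8.94. Dmrt2, a transcription factor, was lower in WT by 1.14 on the log2 scale (SE 0.27, adjusted p = 0.0283), with WT mice at 3.31 to 4.46 and KO mice at 4.97 to 5.69. In air its difference of -0.70 (SE 0.34) did not pass (adjusted p = 1).

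Pttg1 encodes securin, which restrains the separation of sister chromatids until anaphase, and it lay at 2 levels among KO mice. WT mice had 11.87, 11.94, 11.62 and 12.06. KO replicates 2 and 4 had 11.34 and 11.16, close to WT, and replicates 1, 3 and 5 had 8.45, 8.77 and 8.91. The difference of 2.15 (SE 0.40, adjusted p = 0.000959) set WT against a KO mean of 9.72, at which no KO mouse lay. Both other probe sets put the same mice high, at 8.90 and 8.77 against 7.46 to 7.74, and at 5.33 and 5.80 against 4.46 to 4.71. In the whole series 30 of 39 KO mice lay at 8.36 to 9.36 and the other 9 at 11.04 to 11.37, with none between, whereas the 31 WT mice lay at 11.44 to 12.06. The 20 mitotic cell cycle genes of the same lungs had a median difference of -0.04 with none called. Within 5 Mb of Pttg1, 2 of 30 tested genes were called, Pttg1 and Mat2b, and the KO mice with high Pttg1, replicates 4 and 2, had the highest Mat2b of the 5, at 8.94 and 8.65 (others 8.40 to 8.60). In air KO replicate 4, the one of the 4 with high Pttg1 (11.04), had the highest Mat2b as well, at 8.81 (others 8.00 to 8.60).

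**Figure D3:**
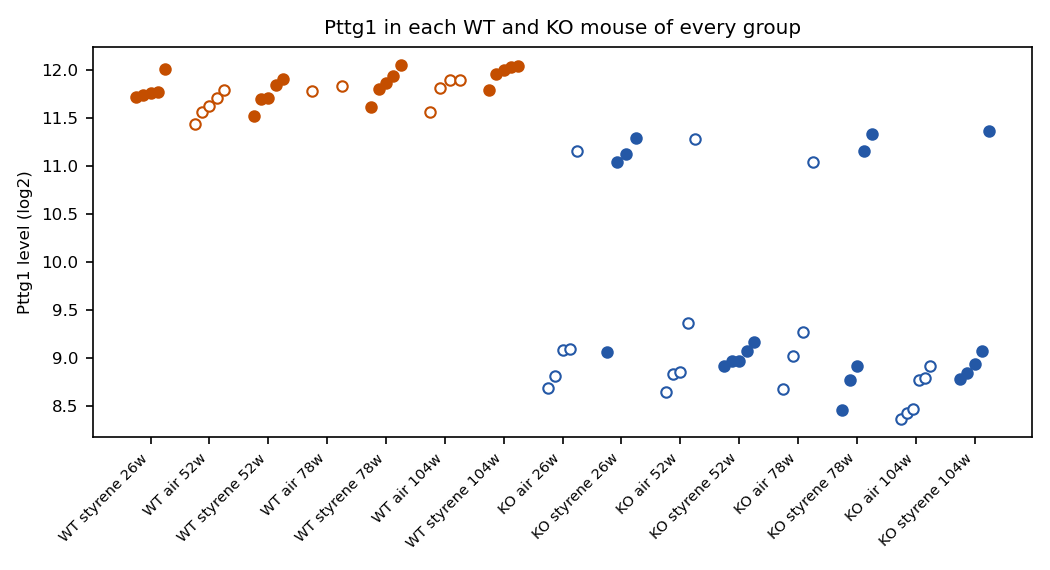
Level of Pttg1 (log2, y axis) in each WT (orange) and KO (blue) mouse of every group (x axis), with styrene mice as filled points; points are drawn in order of level within a group. KO mice fall at 8.36 to 9.36 or at 11.04 to 11.37, and WT mice at 11.44 to 12.06.

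Of the remaining called genes, Tcfl5, a transcription factor of male germ cells, was 3.63, 4.02, 3.67 and 4.17 in WT and 2.43 to 2.86 in KO mice, under the level of 2.99 to 3.19 below which genes were filtered. WT was at least 1.79-fold higher (adjusted p = 0.0163), by a probe set of a shared type. Opn3, an opsin expressed outside the eye, was 5.91, 6.19, 5.88 and 5.92 in WT and 5.16 to 5.63 in KO mice (0.63, SE 0.15, adjusted p = 0.0283). Ppp1r14d, an inhibitor of protein phosphatase 1, was 4.51 to 5.18 in WT and 3.72 to 4.45 in KO mice (0.81, SE 0.18, adjusted p = 0.0225). Tmem62 differed by 0.42 (SE 0.10, adjusted p = 0.0318) and A930001A20Rik, an uncharacterised transcript, by -0.84 (SE 0.19, adjusted p = 0.0225). Ifna2, of the near-identical interferon alpha family, was dim, with KO under the filter level, and WT at least 1.22-fold higher (adjusted p = 0.0166).

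Whether the line difference depends on exposure was tested as the difference of differences, with the 2 air WT mice as the smallest group. No gene was called by limma, and 238 of 15695 had an unadjusted p under 0.05 (1.52%). In air 7 genes were called (0.0446%), and 4 of the 22 were among them: Lrmda, Cyp2f2, Pttg1 and Mat2b. Without KO air replicate 1, Lrmda and Cyp2f2 stayed called in air, and Pttg1 and Mat2b did not (adjusted p = 0.159 each). The styrene-minus-air difference was 1.92 for Ces1g (95% interval 0.97 to 2.88, unadjusted p = 0.00012, adjusted p = 0.938). It was 1.62 for Serpind1 (0.75 to 2.48, unadjusted p = 0.000332, adjusted p = 1) and -2.16 for Asgr1 (-3.50 to -0.81, unadjusted p = 0.00188, adjusted p = 1). It was -0.33 for Cyp2f2 (-0.72 to 0.06) and -0.17 for Pttg1 (-1.48 to 1.13), intervals that include 0. At the level of single mice, the 5 exposed WT mice lay beyond all WT air and KO mice in 14 of the 22 genes, against 0.242% of all genes tested. In 10 of the 22, all 7 WT mice of the week lay beyond all 9 KO mice, against 0.153%. Both held for 5 genes: Ces1g, Nqo1, Atp6v1b1, Ugt1a6a and Ugt1a9. These shares overlap with the comparison that chose the genes and are a description. Air and most styrene arrays are on different plates, and a plate effect cancels only within each exposure.

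The 22 genes were then followed in other mice. At 26, 52 and 104 weeks of styrene, 53, 31 and 61 genes were called between the lines (0.338%, 0.198% and 0.389%). These counts moved with the arrays used: a fit of each comparison's own arrays called 2200, 216 and 43, and leaving out single arrays gave 22 to 122, 9 to 26 and 40 to 66. Of the 22 genes 15, 11 and 17 were among them (68.2%, 50% and 77.3%), or 28.3%, 35.5% and 27.9% of those lists, all in the same direction as at 78 weeks. The same direction was found for 22, 21 and 22 of the 22, Tmem62 at 52 weeks being the exception. At all 4 weeks of styrene 8 genes were called: Ces1g, Lrmda, Cyp2f2, Fetub, Asgr1, Cbr3, Opn3 and Ugt1a9. Asgr1 differed by -1.79, -1.80 and -1.89 at 26, 52 and 104 weeks (adjusted p = 0.0181, 0.0137 and 0.00286), and in air by 0.28 and 0.13 at 52 and 104 weeks (adjusted p = 1 and 0.991). Serpind1 differed by 1.79, 1.00 and 1.81 in styrene (adjusted p = 1.61e-06, 0.0601 and 1.57e-07) and by -0.15 and 0.27 in air. Ces1g varied most with the week. It differed by 4.67, 1.30, 3.38 and 3.44 from 26 to 104 weeks, as exposed WT mice averaged 8.56 ± 0.40 (SD, n = 5), 5.76 ± 0.33 (n = 5), 7.58 ± 0.44 (n = 4) and 8.12 ± 0.45 (n = 5). Exposed KO means stayed between 3.90 and 4.68. WT air mice of 52 weeks averaged 5.86 ± 0.50 (n = 5), so the low value of exposed WT mice at that week lay within the spread of air mice. In air 11 of the 22 were called at 52 weeks and 5 at 104 weeks, among 24 and 30 genes in all (0.153% and 0.191%).

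**Figure D4:**
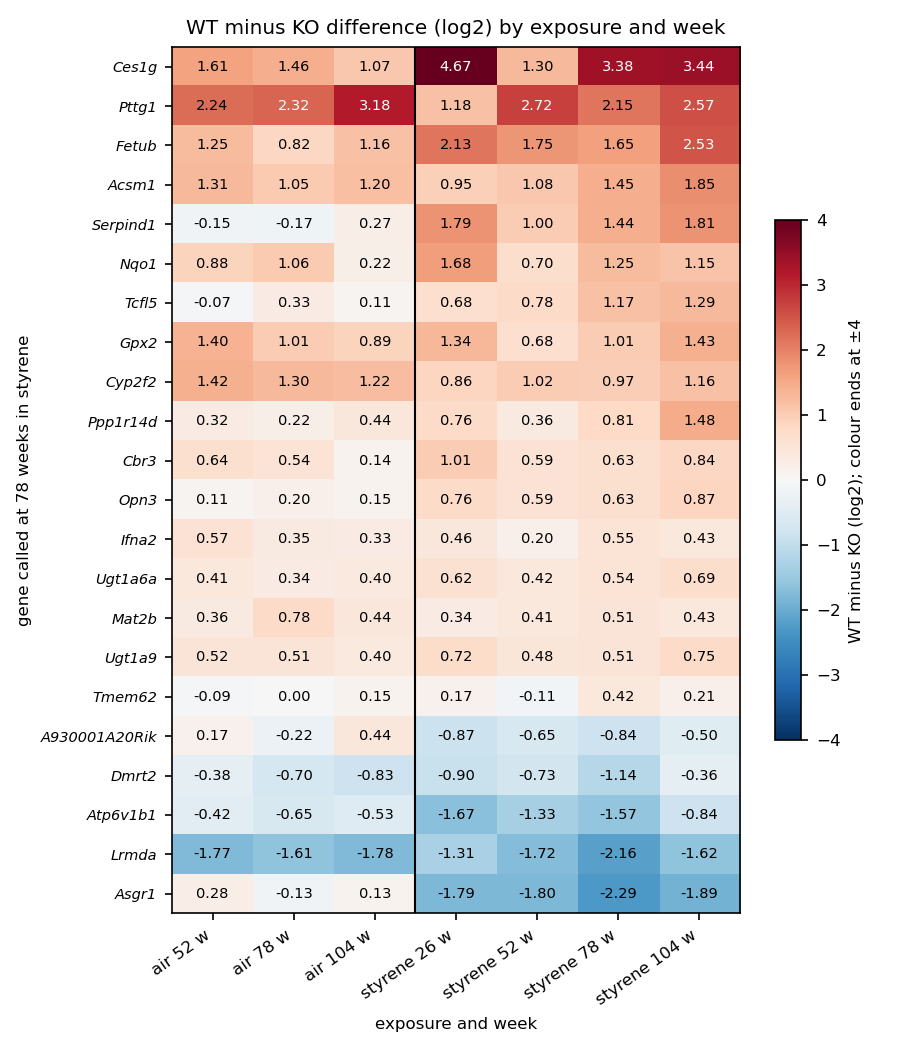
WT minus KO difference (log2, number and colour) of the 22 genes called at 78 weeks in styrene (rows, ordered by that difference) in air and styrene by week (columns). Asgr1, Serpind1 and Opn3 differ in the styrene columns and lie within 0.28 of 0 in the air columns, whereas Lrmda, Cyp2f2 and Pttg1 differ in both.

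The TG line, also CYP2F2-null and on the same plate, lay nearer to KO than to WT in 19 of the 22 genes. Its 3 exposed mice had Ces1g levels of 3.50, 4.79 and 4.42, Serpind1 levels of 4.24, 4.41 and 4.79, Asgr1 levels of 5.60, 6.39 and 4.96 and Lrmda levels of 6.32, 6.82 and 6.99, all on the KO side. The exceptions were Pttg1 (11.27, 11.81 and 11.17), Cbr3 (8.87, 9.61 and 8.85) and A930001A20Rik (3.86, 3.74 and 4.05). For Cbr3 this rests on the mouse at 9.61, TG replicate 2, since the other 2 lay near the KO mean of 8.76. Replicate 2 also stood far from the other 2 in genes of other kinds, picked after their values were seen. Mpo was at 7.88 (others 3.15 and 3.75), Klf1 at 6.39 (3.17 and 3.77), Slc4a1 at 8.90 (5.22 and 6.00) and Mcm4 at 4.67 (7.02 and 6.52). TG arrays, replicate 2 among them, differed from WT in 33.8% and from KO in 32.4% of all genes by limma. How far these percentages rest on replicate 2 was not tested. They count called differences and not nearness. The share of all genes nearer to KO than to WT was not computed, so the 19 of 22 is a description. The comparison of WT with TG shares the WT mice, and that of TG with KO the KO mice.

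Of 41 gene lists, 33 had no called member. The 18 club cell markers had a median of -0.11 and 1 called member, Cyp2f2. Secretoglobin Scgb1a1, the defining club cell product, was at 13.79 in WT and 13.89 in KO. Lypd2, of the Ly6 family, was 8.40 in WT and 9.67 in KO without overlap (-1.27, SE 0.34, adjusted p = 0.186), and Retnla was 11.86 against 9.99 with KO replicate 5 at 11.91 inside the WT range (adjusted p = 0.349). Ciliated cell markers were lower in WT in 15 of 16 (median -0.23) and B cell markers in 13 of 13 (median -0.43). So were MHC class II genes in 10 of 10 (median -0.26), heart muscle genes in 13 of 13 (median -0.22) and T and natural killer cell genes in 16 of 17 (median -0.23). Over all genes 50.5% were lower. In air at 78 weeks the median line difference was -0.28 for B cells, -0.32 for MHC class II and -0.2 for heart muscle. It was -0.05 for T and natural killer cells and 0.14 for ciliated cells. Other lists were as one-sided the other way. Cholesterol synthesis genes were higher in WT in 15 of 16 (median 0.22) and neutrophil genes in 12 of 13 (median 0.23). Platelet genes were higher in 8 of 8 (median 0.11) and unfolded protein response genes in 14 of 16 (median 0.14). Their medians in air, from cholesterol synthesis to unfolded protein response, were -0.04, -0.04, 0.01 and 0.01. None of these lists had a called member. Array means of these lists overlapped between the lines, at 6.54 to 6.98 in WT and 6.60 to 7.24 in KO for ciliated cells, 5.91 to 7.02 and 6.41 to 7.05 for B cells, and 5.37 to 5.53 and 5.04 to 6.57 for heart muscle, where KO replicate 1 was highest. The platelet mean was 9.01 in WT replicate 5, against 7.31 to 7.81 in WT replicates 2 to 4 and 7.40 to 8.01 in KO mice. Members of a cell marker list share the cells they mark and do not count separately. The part of these cell types in the called differences was not tested.

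WT replicate 4 and KO replicate 5 were alike in what set them apart. Genes in this paragraph were picked after their values were seen. The first principal component of deviations from the group means held 59.2% of the variance within groups, with these mice at 35.59 and 50.09 and the other 7 between -27.95 and -0.53. Against the other mice of its line, WT replicate 4 differed by more than 1 in 480 genes and KO replicate 5 in 999. Of these, 324 were shared in the same direction and 1 in the opposite one. The glycoprotein Gpnmb of lipid-laden macrophages was at 11.48 in each, against 6.93 to 8.12 in other WT and 6.72 to 7.95 in other KO mice. The elastase Mmp12 was at 10.68 and 8.76 (others 4.64 to 6.99), the protease Ctsk at 11.99 and 11.91 (8.27 to 9.29) and the acute-phase protein Saa3 at 10.69 and 10.06 (5.28 to 7.85). The neuropeptide Npy was at 8.01 and 7.15 (2.70 to 3.18), and the growth factor Igf1 at 7.91 and 7.39 (4.25 to 4.73). The alveolar type 1 gene Akap5 was low in both, at 6.62 and 6.56 (7.60 to 8.67). Elsewhere, KO air replicate 1 had Gpnmb at 10.70, Ctsk at 11.02, Trem2 at 7.94, Saa3 at 9.01 and Fga at 7.94, against at most 7.08, 8.72, 5.12, 5.61 and 4.29 in the other KO air mice. TG styrene replicate 3 had Gpnmb at 10.38, Ctsk at 11.06, Trem2 at 7.82 and Saa3 at 9.74, the last beside 8.87 in TG replicate 1. Without KO air replicate 1, 5 genes were called in air and none for the difference of differences, which was then 1.89 for Ces1g, 1.40 for Serpind1 and -2.11 for Asgr1 (adjusted p = 1 each). The 18 macrophage markers had a median difference of 0.19 between the exposed lines with none called, and of 0.13 with none called without both exposed mice that stood apart.

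**Figure D5:**
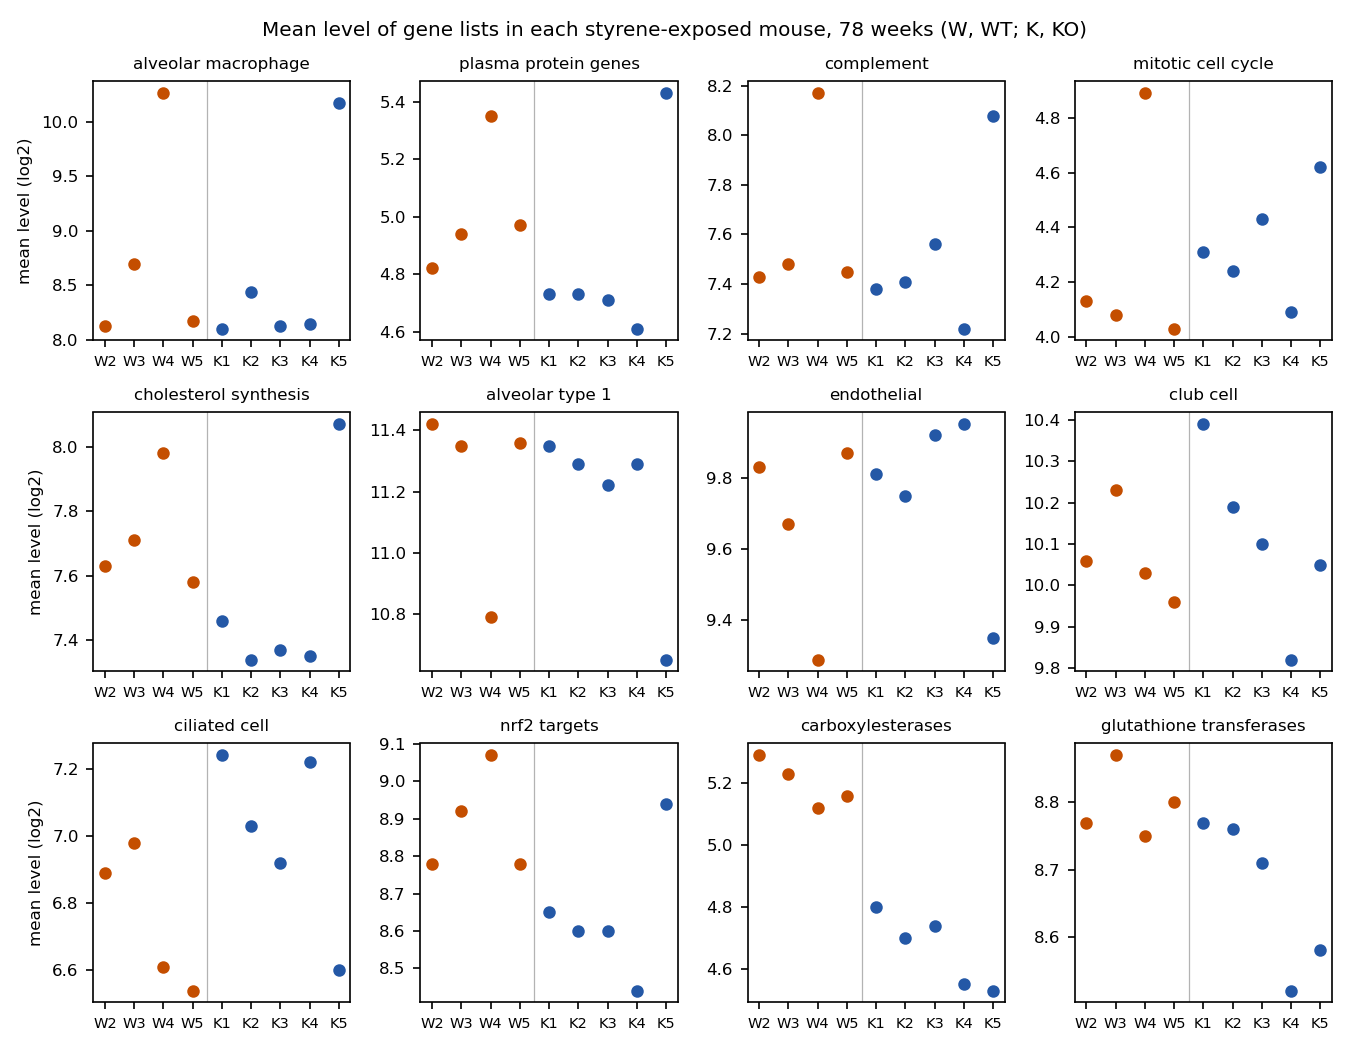
Mean level (log2, y axis, own range in each panel) of 12 gene lists in each styrene-exposed mouse at 78 weeks (x axis; W2 to W5 are WT and K1 to K5 KO replicates). W4 and K5 stand apart in alveolar macrophage, complement, alveolar type 1 and endothelial lists, and carboxylesterase means do not overlap between the lines (5.12 to 5.29 and 4.53 to 4.80), with Ces1g among the members.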

How the data were processed

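Whole-lung RNA was measured on Affymetrix HT MG-430 PM arrays. The authors deposited a log2 intensity for each probe set, summarised by RMA with Partek, per the submitters' processing notes (versions, and joint or separate normalisation of plates: not given in the sources used here). Array values near the dim end understate folds. Plates were read from well labels: of the 9 arrays, 6 have a well that another array of the same name series also has, and the others follow the same order. Exposed WT mice lie in rows A and B and KO mice in rows C to E, so position on the plate and line cannot be told apart.

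Of 45037 probe sets, 28898 with 1 gene in the platform annotation were used, and the brightest stood for a gene. Of 17097 genes, 15695 lay above the 30th percentile of an array in at least 3 arrays. Group means of 149 arrays and a term for plate 2 were fitted with limma 3.58.1 (lmFit, eBayes; R 4.3.3 and its data.table package, 1.17.8), with Benjamini-Hochberg adjustment; adjusted p-values are from that fit unless an alternative is named. A fold with 1 side under the filter level is a lower bound, the brighter mean against the higher of that level and the value on each dimmer array. Figures used matplotlib 3.10.9.

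Genes were named by rule: the called genes, up to 15 in each direction, up to 4 members of a list with the smallest p, Cyp2f2, carboxylesterases and genes of earlier results. Tmem62, Ugt1a9 and other members of the lists described were named after their values were seen. The members and lists were chosen with earlier results of these data known. Gene positions served to find neighbours; the coordinates printed are those of the RefSeq promoter windows alone, since no build is named for the array. Alternatives were other filters, the mean of probe sets, other sets of arrays, trend and robust settings, blocks and each array left out; fits without the arrays that stood apart or without TG styrene arrays were added after seeing the data.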

Additional observations from a re-analysis of the deposited data

Results flagged for a closer look

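Single mice stood apart from their group, by Dixon's test at 95%, in 15 of the 126 sets of values looked at (22 called genes and 41 list means in 4 WT and 5 KO exposed mice); chance gives about 1 in 20. KO replicate 5 was low for Cyp2f2 (11.82, other KO mice 12.25 to 12.37) and A930001A20Rik (3.85, others 4.59 to 4.84), and high for Fetub (5.75, others 4.16 to 4.43). KO replicate 4 was low for Tmem62 (6.90, others 7.09 to 7.16). WT replicate 3 was high for Opn3 (6.19, others 5.88 to 5.92).

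Among list means, KO replicate 5 was high for alveolar macrophage markers (10.17, other KO mice 8.10 to 8.44), plasma protein genes (5.43, others 4.61 to 4.73), cholesterol synthesis (8.07, others 7.34 to 7.46) and the thyroid and cartilage list (3.85, others 3.09 to 3.27). It was low for alveolar type 1 markers (10.65, others 11.22 to 11.35) and heat shock genes (8.55, others 8.80 to 8.89). WT replicate 4 was high for complement genes (8.17, other WT mice 7.43 to 7.48) and mitotic cell cycle genes (4.89, others 4.03 to 4.13) and low for alveolar type 1 markers (10.79, others 11.35 to 11.42). KO replicate 4 was low for the respiratory chain (10.08, others 10.17 to 10.19).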

How the results depend on the processing

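The 22 genes called between exposed WT and KO lungs at 78 weeks kept their direction in every alternative in which they were tested, and the count stayed within 1.5 times except as follows. It was 7 with the 9 arrays alone, 4 with the well column as a block and 1, Ces1g, with the replicate numbers as a block. Same-numbered arrays of the 2 lines had correlations of 0.30, 0.02, -0.51 and -0.31 in their deviations from the group means. The arrays that stood apart weigh heavily in these deviations, so the correlations cannot show whether the numbers pair mice. The labels give no pairing, and the block was used only here. Leaving out single arrays gave 10 to 30 calls. With C57BL/6 arrays only it was 31, and 21 without both arrays that stood apart. No setting called a gene for the difference of differences, also with each array left out.

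For the line difference in air at 78 weeks (7 genes) the count was 3 with its own arrays, 0 with the replicate block and 2 to 6 with single arrays left out. At 26 weeks of styrene (53) it was 123 with C57BL/6 arrays, 2200 with its own arrays, 1702 with the replicate block and 22 to 122 with single arrays left out. At 52 weeks (31) it was 54, 216, 10 and 9 to 26 in the same order. At 104 weeks (61) it was 109 with C57BL/6 arrays, 32 with the stricter filter, 12 with the replicate block, 96 without arrays with a tumour note and 40 to 66 with single arrays left out. The cause of these moves was not tested. Fits with a block, own arrays or a left-out array also hold fewer arrays, and their counts moved in both directions. Signal over background limits Tcfl5, Ifna2, Ces1c and Kng1, whose KO means lie under the filter level.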
